A study of Homo sapiens with 4 samples.

Results

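The heat shock genes described here are HSF1 and 9 genes of heat shock proteins, HSPA1A, HSPA1B, HSPA8, HSPB1, HSPH1, HSP90AA1, HSPD1, HSPE1 and DNAJB1. They were chosen by gene symbol, with earlier results of these data known. All 10 were found, with 1 row each, among the 57500 genes that were counted. RNA came from parental SUM159 cells, a triple-negative breast cancer line (1 library), and from 3 NOS2KO clones of that line (1 library each), which the labels number 1, 5 and 6. The clones came from cells given a double nickase CRISPR plasmid that targets NOS2, grown out under puromycin, and picked by iNOS protein and nitrite/nitrate level. The labels name no transfected and selected control, so the loss of NOS2 cannot be told apart from transfection, selection and growth from single cells, and each clone stands for 1 culture.

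Heat shock proteins are chaperones, which bind unfolded proteins and help them fold or hold them in solution. The transcription factor HSF1 is held inactive in unstressed cells, and on stress it forms trimers and binds heat shock elements, arrays of the motif nGAAn in alternating orientation, in the promoters of chaperone genes. HSF1 is controlled largely at the protein level, and chaperones are abundant in many cancer cells also without heat.

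The libraries held 90467395 to 122171287 counts on genes. Where the values of 4 libraries are given in a row, they stand for parental cells, clone 1, the library labelled clone 5 and clone 6. NOS2, the targeted gene, had 2, 3, 18 and 1 counts. Its mRNA was thus at or under a floor of 3 counts in all but the library labelled clone 5, where it was higher than in the parental library. With 2 counts in the parental library, a loss of NOS2 mRNA could not be seen in any clone. The clones were picked by protein and nitrite/nitrate, so the mRNA does not test their labels. ESR1 and PGR, the receptors that the label implies are missing, summed to at most 0.769 CPM in any library (CPM, the counts of a gene relative to the size of its library), and ERBB2 lay between 48.3 and 106 CPM. Of 5 leukocyte and endothelial markers, 3 exceeded 1 CPM in a library, and their sum was 20.9 CPM in parental cells and 52.8 to 116 in the clones. In the clones most of that sum came from PTPRC (41.7 to 105 CPM), which had 4.45 CPM in parental cells, while CD3E was at 0 in the parental library and clone 6. Without PTPRC the sum was 16.5 CPM in parental cells and 11.1 to 14.3 in the clones. Most of it was PECAM1, which was lower in every clone (16.1, 13.9, 7.06 and 8.64 CPM). VWF was scarcer and higher in every clone (0.210, 0.279, 3.80 and 2.15 CPM). The part of these markers in the results was not tested. CPM values are scaled by TMM, a method that corrects library size for differences in composition.

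In the NOS2KO clones, the mRNAs of the cytosolic HSP70 genes HSPA1A, HSPA1B and HSPA8 and of the small heat shock protein gene HSPB1 were 3.71 to 4.51 times the parental level on average. HSF1 itself was at 0.504 times the parental level. DNAJB1 and HSPE1 were higher in all 3 clones by smaller factors, and HSPH1, HSP90AA1 and HSPD1 lay on both sides of the parental level. The comparison of the 3 clones with parental cells used the quasi-likelihood test of edgeR, its p-values adjusted after Benjamini and Hochberg over 22511 genes. No member had an adjusted p under 0.05, against 0.00444% of all genes tested. By a looser criterion without adjustment, a p under 0.05 together with a log2 fold change beyond 1 or -1, 4 of the 10 members were higher and 0 were lower, against 4.24% and 5.34% of all genes tested. An unadjusted p under 0.05 was reached by 5 members (11.5% of all genes), of which those 4 were higher (4.67%) and HSF1 was lower (6.83%). With HSPA1A and HSPA1B counted as 1 gene, 3 were higher by the looser criterion. The members were chosen with earlier results known, so their shares are a description and no test. With DESeq2's Wald test 4 members were higher at an adjusted p under 0.05 (2.47% of all genes) and 0 were lower (2.40%). The parental line had 1 library, so the spread comes from the clones alone, and permuting the 4 labels exactly allows no p below 0.25. No label describes more than 1 culture per clone, so the spread is that between these 3 libraries. The p-values set the difference from the parental library against it, after the fit draws it toward that of all genes.

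**Figure D1:**
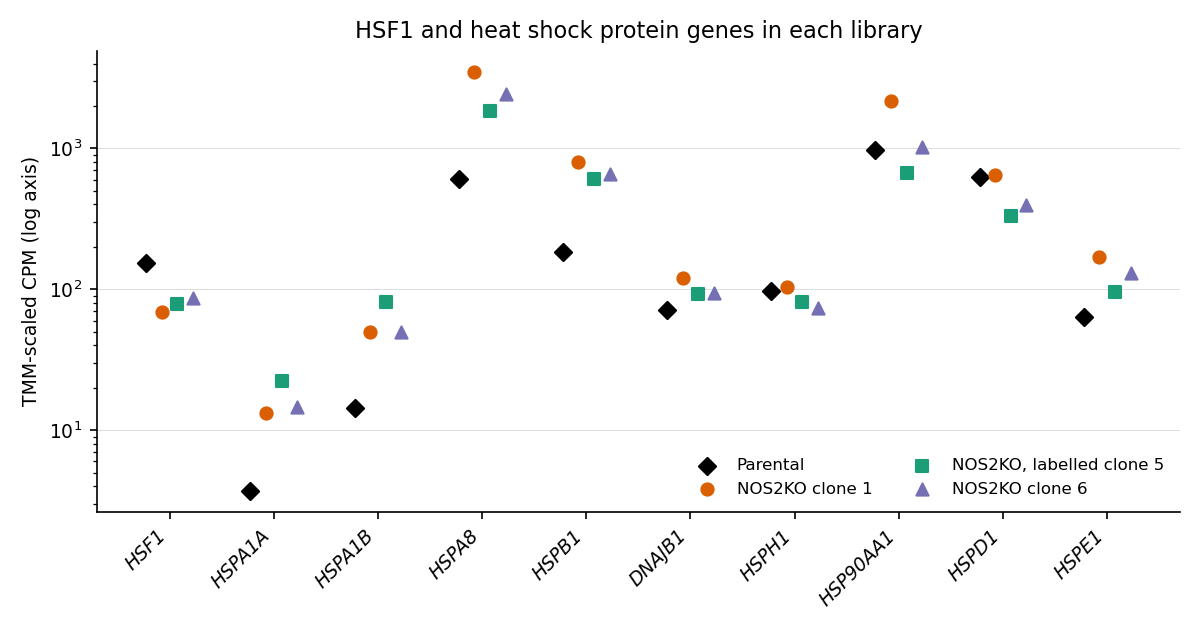
TMM-scaled CPM (log axis) of HSF1 and 9 heat shock protein genes in the parental library (black diamonds) and in the NOS2KO libraries of clones 1, 5 and 6 (coloured points), with 1 point per library. For HSPA1A, HSPA1B, HSPA8 and HSPB1 the 3 clones lie above the parental point by over 2-fold, and for HSF1 they lie below it.

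HSF1 (ENSG00000185122, protein coding, chromosome 8 of GRCh38 from 144291591 to 144314722, plus strand) had 13991, 7954, 8370 and 8481 counts, or 154.8, 69.4, 78.5 and 86.0 CPM, a clone mean of 78.0 ± 8.35 (SD, n = 3). The 3 clones lay close to each other and all below the parental library. The log2 fold change was -0.99 (standard error, SE, 0.28, adjusted p = 0.343, edgeR), just short of the looser criterion, which it met when clone 6 was left out (-1.06). The 3′ end of HSF1 shares 139 bases, 2.62% of the exon bases of the gene, with DGAT1 on the other strand. HSF2, a second heat shock factor of lower abundance, had 18.3 CPM in parental cells and 12.6 ± 2.75 (SD, n = 3) in the clones, which gave a difference of -0.54 on the log2 scale (SE 0.40, adjusted p = 0.621). HSBP1, a small protein that binds HSF1, had 78.3 CPM in parental cells and 133 ± 20.1 (SD, n = 3) in the clones, which gave a difference of 0.76 on the log2 scale (SE 0.31, adjusted p = 0.463).

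HSPA1A and HSPA1B encode the stress-inducible HSP70, and lie next to each other in the MHC region of chromosome 6. HSPA1A (ENSG00000204389, 31815464 to 31817946, plus strand) had 336, 1515, 2398 and 1434 counts, or 3.72, 13.2, 22.5 and 14.5 CPM, a clone mean of 16.8 ± 5.02 (SD, n = 3). HSPA1B (ENSG00000204388, 31827735 to 31830255, plus strand) had 1295, 5725, 8629 and 4939 counts, or 14.3, 49.9, 80.9 and 50.1 CPM, a clone mean of 60.3 ± 17.9 (SD, n = 3). Both genes were higher in every clone, and of the clones the library labelled clone 5 was highest. The log2 fold change was 2.17 for HSPA1A (SE 0.45, adjusted p = 0.332, edgeR) and 2.07 for HSPA1B (SE 0.40, adjusted p = 0.327). Of the 150-base windows in annotated HSPA1A transcripts, 63.2% also occur in HSPA1B, and 70.0% of those in HSPA1B occur in another gene. Reads from these windows cannot be assigned to 1 copy, the counting of such reads is not given in the sources used here, and the levels are therefore uncertain for each copy. The ratio of HSPA1B to HSPA1A in counts per kilobase of exon was 3.80 in the parental library and 3.39 to 3.72 in the clones. Counted as 1 gene, the pair had 18.0 CPM in parental cells and 77.1 ± 22.9 (SD, n = 3) in the clones, with an adjusted p of 0.327 from edgeR.

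HSPA8 encodes HSC70, the constitutive HSP70 of the cytosol, which also serves clathrin uncoating and chaperone-mediated autophagy. The gene (ENSG00000109971, chromosome 11 from 123057489 to 123063230, minus strand) had 54835, 401549, 197633 and 241223 counts, or 606.6, 3501, 1854 and 2447 CPM, a clone mean of 2601 ± 834 (SD, n = 3). The log2 ratios of the clones to parental cells were 2.53, 1.61 and 2.01. All 3 clones lay above parental cells, and clone 1, the highest, exceeded the library labelled clone 5 by 0.92 on the log2 scale (exact 95% counting interval 0.91 to 0.92). The log2 fold change was 2.10 (SE 0.48, adjusted p = 0.340, edgeR). No 150-base window of protein-coding HSPA8 transcripts occurs in another annotated gene. Such windows miss shorter overlaps, and HSPA8 shares 175 exon bases (3.61%) with the small RNA genes SNORD14C and SNORD14D on the same strand. Both had 0 counts in every library.

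HSPB1 encodes HSP27, a small heat shock protein that holds unfolded proteins without ATP and binds actin. It (ENSG00000106211, chromosome 7 from 76302544 to 76304295, plus strand) had 16726, 91288, 64856 and 64845 counts, or 185, 796, 608 and 658 CPM, a clone mean of 687 ± 97.2 (SD, n = 3). All 3 clones lay above parental cells and differed less from each other than for HSPA8, and the log2 fold change of 1.89 (SE 0.33, adjusted p = 0.310, edgeR) had the lowest p of the 10 members (unadjusted p = 0.00458). With DESeq2's Wald test the adjusted p was 0.000185 for HSPB1, 0.00224 for HSPA1A, 0.00231 for HSPA1B and 0.00423 for HSPA8. Over all alternatives with a test, the adjusted p of these 4 genes reached 0.739 at most, and each clone left out in turn left their log2 fold changes between 1.78 and 2.32.

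**Figure D2:**
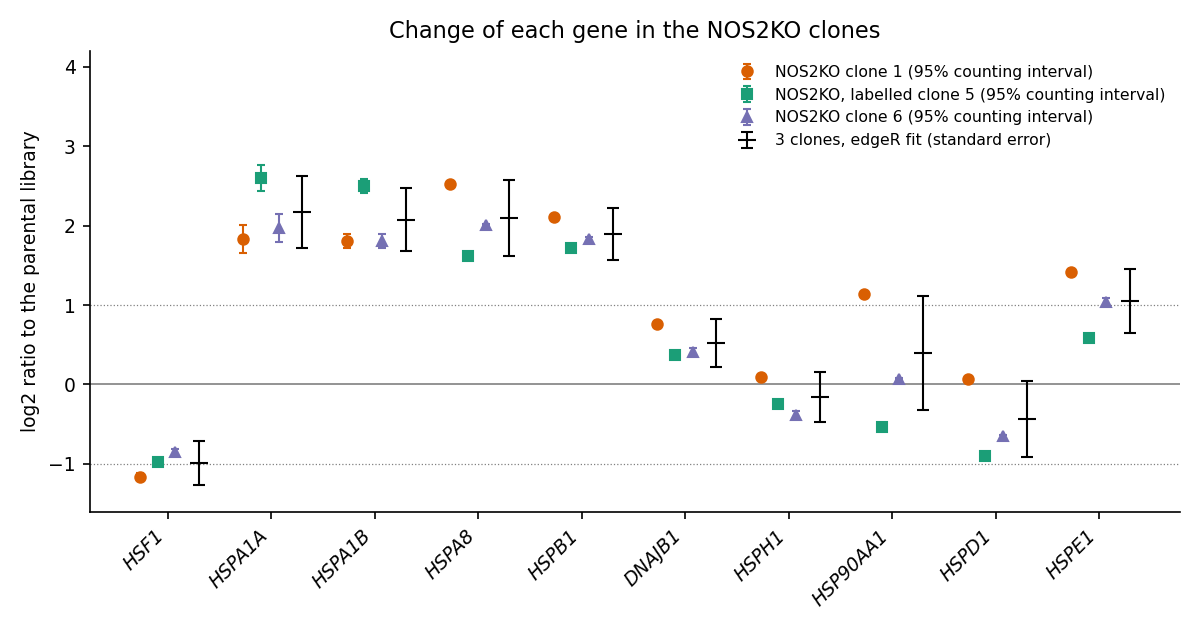
Log2 ratio of each NOS2KO clone to the parental library for the same 10 genes, with exact 95% counting intervals, and the log2 fold change fitted over all 3 clones with its SE (black). Dotted lines mark a 2-fold difference. HSPA1A, HSPA1B, HSPA8 and HSPB1 lie above the upper line in every clone, and the clones disagree in sign for HSP90AA1, HSPH1 and HSPD1.

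Sequence before the starts of these 4 genes is shown because they were over 2-fold higher in every clone, with that of HSP90AA1, another classical heat shock gene, for contrast. The windows searched were the 250 bases before each start in RefSeq's annotation of GRCh38.p14, on the strand of the gene and written 5′ to 3′. Capitals mark letters of heat shock elements, either of 2 units (GAANNTTC or TTCNNGAA) or of 3 units (GAANNTTCNNGAA or TTCNNGAANNTTC). Both strands were covered, since each 2-unit form reads the same on the other strand and the 3-unit forms are each other's reverse, and each 3-unit match holds a match of both 2-unit forms. Windows are printed up to the first base that GENCODE places in an exon, and matches inside an exon are printed alone.
HSPA1A, chr6:31815293-31815463, plus strand: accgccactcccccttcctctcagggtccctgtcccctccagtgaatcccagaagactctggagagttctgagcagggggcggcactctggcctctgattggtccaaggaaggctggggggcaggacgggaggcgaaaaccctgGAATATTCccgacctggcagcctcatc
HSPA1B, chr6:31827488-31827734, plus strand: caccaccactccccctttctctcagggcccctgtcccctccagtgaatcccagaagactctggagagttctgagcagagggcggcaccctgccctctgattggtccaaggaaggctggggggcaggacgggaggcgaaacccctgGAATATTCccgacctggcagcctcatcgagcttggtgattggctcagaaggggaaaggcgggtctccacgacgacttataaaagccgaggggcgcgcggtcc
HSPB1, chr7:76302423-76302543, plus strand: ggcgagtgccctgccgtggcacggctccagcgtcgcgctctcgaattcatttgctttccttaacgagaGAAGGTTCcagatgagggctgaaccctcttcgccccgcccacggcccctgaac
HSPA8, first match, chr11:123062354-123062366, minus strand: GAAAGTTCCAGAA
HSPA8, second match, chr11:123062179-123062191, minus strand: TTCTGGAAGGTTC
HSP90AA1, start of the short transcript, chr14:102087105-102087132, minus strand: TTCCGGAAGGTTCgggaggcTTCTGGAA

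HSPA1A and HSPA1B each hold 1 match, of the same 8 letters, which begins 106 and 105 bases before the start in windows that are 93.6% identical. HSPA8 holds 2 matches of 3 units, beginning 230 and 55 bases before the start, and HSPB1 holds 1 match of 2 units at 182 bases. HSP90AA1 holds 1 match of 3 units at 88 bases and a separate one of 2 units at 68 bases. Of 35116 windows of this length in the RefSeq table, 11.6% hold a 2-unit match and 0.441% a 3-unit match. The 9 members in the table have 13 windows, 1 for each annotated start, of which 7 hold a 2-unit match. These belong to 7 members, HSPH1 and HSPE1 having none within the 250 bases, and 3 members have a 3-unit match. Of these 3, HSPA8 was higher in every clone, and HSP90AA1 and HSPD1 were not. The matches of HSPD1 lie in its window from 197499841 to 197500090 on chromosome 2. They are upstream of the RefSeq start of the divergent gene HSPE1 as well. In the annotation used for counting, HSPE1 begins at 197499994, so there they lie inside its interval. The HSPE1 window begins at 197500129, so these matches fell outside it and were not counted for HSPE1. A match is a description of letters and no measurement of binding.

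DNAJB1 and HSPH1 work with HSP70 in the cytosol. DNAJB1 (HSP40, ENSG00000132002, chromosome 19 from 14514770 to 14529770, minus strand) delivers clients to HSP70 and stimulates its ATPase. It had 71.0, 120, 92.2 and 94.2 CPM, a clone mean of 102 ± 15.7 (SD, n = 3). All 3 clones lay above the parental library, with a log2 fold change of 0.53 (SE 0.30, adjusted p = 0.560, edgeR). DNAJB1 shares 228 bases, 6.21% of its exon bases, with TECR on the other strand, and TECR had 5158 counts in the parental library and 13399 to 20449 in the clones. HSPH1 (HSP110, ENSG00000120694, chromosome 13 from 31134974 to 31162388, minus strand) exchanges the nucleotide on HSP70. It had 96.5, 103, 81.4 and 74.1 CPM, a clone mean of 86.3 ± 15.2 (SD, n = 3), on both sides of the parental level, with a log2 fold change of -0.16 (SE 0.32, adjusted p = 0.862).

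HSP90AA1 encodes the inducible cytosolic HSP90, which matures kinases and steroid receptors. The gene (ENSG00000080824, chromosome 14 from 102080738 to 102139699, minus strand) had 974, 2152, 671 and 1024 CPM, a clone mean of 1282 ± 773 (SD, n = 3), so that the clones lay on both sides of parental cells. Of the 10 members it spread most between clones, clone 1 being above the library labelled clone 5 by 1.68 on the log2 scale (exact 95% counting interval 1.67 to 1.69). The fitted log2 fold change was 0.40 (SE 0.72, adjusted p = 0.855, edgeR), and it turned to -0.20 without clone 1. HSP90AB1, its constitutive relative, had 1507 CPM in parental cells and 1534 ± 395 (SD, n = 3) in the clones, which gave a difference of 0.03 on the log2 scale (SE 0.43, adjusted p = 0.987) that turned negative without clone 1 (-0.15). Only mRNA was measured, whereas HSP90 protein served as a loading control in some of the study's immunoblots. HSP90AA1 shares 197 bases, 3.75% of its exon bases, with WDR20 on the other strand. WDR20 had 2378, 4697, 2009 and 3058 counts, and the part of this overlap was not tested.

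HSPD1 (HSP60) and HSPE1 (HSP10) form the folding chamber of the mitochondrial matrix and its lid. The 2 genes lie head to head on chromosome 2, HSPD1 (ENSG00000144381) from 197486581 to 197516737 on the minus strand and HSPE1 (ENSG00000115541) from 197499994 to 197503457 on the plus strand. HSPD1 had 622, 651, 334 and 396 CPM, a clone mean of 460 ± 168 (SD, n = 3), with a log2 fold change of -0.43 (SE 0.48, adjusted p = 0.744, edgeR). HSPE1 had 63.6, 169, 95.4 and 131 CPM, a clone mean of 132 ± 37.0 (SD, n = 3). Every clone was thus above the parental library for HSPE1, while for HSPD1 clone 1 was near it and the others below it. The log2 fold change of HSPE1 was 1.05 (SE 0.40, adjusted p = 0.450), with an unadjusted p of 0.0605. HSPE1 met the looser criterion under 5 alternatives, with unadjusted p of 0.0374 (upper quartile scaling), 0.0414 (library size only), 0.0416 (no filter on low counts), 0.0389 (DESeq2's Wald test) and 0.0373 (without the library labelled clone 5). In counts per kilobase of exon, HSPD1 was 4.55 times HSPE1 in the parental library and 1.61 ± 0.193 times (SD, n = 3) in the clones, so each clone had a smaller excess of HSPD1. The exons of the pair overlap by 281 bases, which is 6.62% of HSPD1 and 14.2% of HSPE1, and since the kit is not named as directional and no strand setting is given in the sources used here, reads there may not have been told apart. HSPE1 also shares 192 exon bases with its readthrough gene HSPE1-MOB4, which had 22 to 42 counts.

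Per kilobase of exon, the order of levels in the parental library was HSP90AA1 (186 CPM per kilobase), HSPD1 (146), HSPA8 (125), HSPB1 (113), HSPE1 (32.2), HSF1 (29.2), DNAJB1 (19.3), HSPH1 (11.5), HSPA1B (5.68) and HSPA1A (1.50). In the clones it was HSPA8 (536 ± 172, SD, n = 3, in CPM per kilobase), HSPB1 (421 ± 59.5), HSP90AA1 (244 ± 147), HSPD1 (108 ± 39.6), HSPE1 (66.8 ± 18.7), DNAJB1 (27.8 ± 4.26), HSPA1B (23.9 ± 7.09), HSF1 (14.7 ± 1.57), HSPH1 (10.3 ± 1.81) and HSPA1A (6.75 ± 2.02). The clones' ranges did not overlap between HSPE1 and DNAJB1, between HSPA1B and HSF1, and between HSF1 and HSPH1, and the other neighbours in that order overlapped. Within single libraries, clones 1 and 6 each had that same order. The library labelled clone 5 differed from it only in having HSPA1B above DNAJB1. HSPA8 was below HSP90AA1 in the parental library, at 0.674 times its level per kilobase, and above it in each clone, at 1.76 to 2.99 times. The 10 genes together took 2792 CPM in parental cells and 7625, 3919 and 4975 CPM in clone 1, the library labelled clone 5 and clone 6.

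Over 2-fold higher than the parental library were 6 members in clone 1 (17.1% of all genes tested), 4 (21.3%) in that labelled clone 5 and 5 in clone 6 (19.3%), and 4 members were so in every clone (7.67%). Over 2-fold lower was HSF1 in clone 1 (20.2%), and 0 members were so in every clone (6.29%). The 4 members above 2-fold in every clone are HSPA1A, HSPA1B, HSPA8 and HSPB1, and the clones' ratios share 1 parental library. Higher in every clone by any amount were 6 members (28.6% of all genes), and 1, HSF1, was lower in every clone (30.5%). HSPA1A and HSPA1B were highest in the library labelled clone 5, whereas HSPA8, HSPB1, HSP90AA1, HSPD1, HSPE1, HSPH1 and DNAJB1 were highest in clone 1. HSPA1A, HSPA1B, HSPB1 and HSPE1 belong to the shortest of 5 equal length classes of protein-coding genes that reached 10 CPM in a library (exons of up to 3101 bases). The median log2 fold change was 0.13 in that class and -0.14 in the longest, and the part of length in the results was not tested.

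The other genes of heat shock and protein folding were taken from 8 lists with 96 genes, of which 89 were tested. These lists too were chosen with earlier results of these data known, so their shares are a description. By the looser criterion 4 of them (4.49%) were higher, against 4.24% of all genes tested, and 12 (13.5%) were lower, against 5.34%. In the adjusted test of edgeR 0 passed. With DESeq2's Wald test 9 had an adjusted p under 0.05, of which 3 were higher (HSPA2, HSPA6 and HSPB3) and 6 lower, against 2.47% and 2.40% of all genes tested. Over the lists together, the median log2 fold change was -0.12, against 0.10 over all genes tested.

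**Figure D3:**
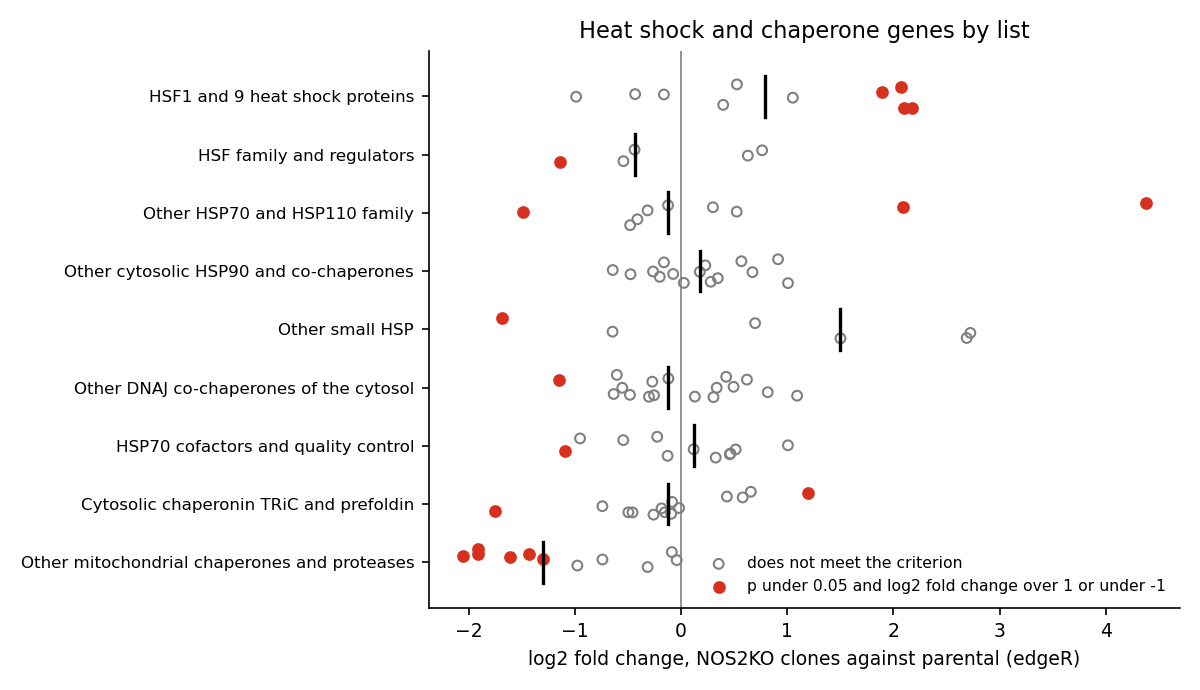
Fitted log2 fold change (edgeR) of each tested gene by list, for HSF1 and the 9 heat shock proteins and for the 8 other lists. Red points meet the looser criterion, vertical bars are medians, and HSPB3, with 0 counts in the parental library, is not drawn. Red points lie on the right for the first row and on the left for the mitochondrial list.

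Within the other HSP70 and HSP110 genes, 2 of 9 were higher by the looser criterion (4.24% of all genes) and 1 lower (5.34%). The median log2 fold change of this list was -0.12. HSPA2, an HSP70 known best from spermatogenesis, had 0.686 CPM in parental cells and 11.3, 10.3 and 21.2 CPM in clone 1, the library labelled clone 5 and clone 6. The fold over the parental level was 20.8 on average, and the log2 fold change was 4.38 (SE 0.58, adjusted p = 0.275, edgeR, and 1.19e-08 with DESeq2's Wald test). HSPA6, a strictly heat-inducible HSP70, had 0.409 CPM in parental cells and 1.33, 1.67 and 2.24 CPM in the clones, which gave a difference of 2.09 on the log2 scale (SE 0.61, adjusted p = 0.386, edgeR). It reached at most 2.24 CPM in any library. HSPA13, an HSP70-like protein of the endoplasmic reticulum, was the lower one, with 143 CPM in parental cells and 50.8 ± 19.9 (SD, n = 3) in the clones, which gave a difference of -1.49 on the log2 scale (SE 0.48, adjusted p = 0.359). HSPA4, an HSP110-type exchange factor, had a log2 fold change of -0.32 (SE 0.37, adjusted p = 0.758).

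Among 7 tested small heat shock proteins other than HSPB1, 1 was higher (4.24% of all genes) and 1 lower (5.34%) by the looser criterion, both scarce. Both were named after their values were seen. HSPB3 had 0 counts in the parental library and 35, 107 and 50 in the clones, at least 18.2-fold higher on average against a floor of 3 counts in the parental library. HSPB6, a small heat shock protein of muscle, had 1.04 CPM in parental cells and 0.321 ± 0.0876 (SD, n = 3) in the clones. The 7 genes had a median of 1.50 on the log2 scale, HSPB3 included. HSPB8, which pairs with BAG3 and had the highest mean CPM of this list, had 9.85 CPM in parental cells and 22.8, 44.7 and 16.2 CPM in the clones, which gave a difference of 1.50 on the log2 scale (SE 0.63, adjusted p = 0.488, edgeR). CRYAB, the lens and muscle small heat shock protein alphaB-crystallin, was above 1 CPM only in the library labelled clone 5 (1.64).

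The HSP90 co-chaperones had 0 genes past the looser criterion among 15 tested, with a median log2 fold change of 0.18. Over all genes tested, 4.24% were higher and 5.34% lower by that criterion, the shares to set beside each list of this paragraph. The cytosolic DNAJ genes had 0 higher and 1 lower of 17, DNAJC2, a ribosome-associated J protein, with a log2 fold change of -1.15 (SE 0.32, adjusted p = 0.337, edgeR). Of the HSP70 cofactors 1 of 11 was lower, BAG2 (-1.09, SE 0.36, adjusted p = 0.370). BAG3, an HSF1 target of selective autophagy, had 65.1 CPM in parental cells and 106, 88.7 and 73.2 CPM in the clones (log2 fold change 0.46, SE 0.32, adjusted p = 0.623). The genes with the highest mean CPM were HSP90AB1 in the first of these lists and the HSP40 gene DNAJA1 in the second (0.34, SE 0.33, adjusted p = 0.722), neither of which passed the test. Of the chaperonin TRiC and prefoldin 1 of 14 was higher, PFDN5 (1.20, SE 0.37, adjusted p = 0.389), and 1 lower, PFDN2 (-1.76, SE 0.45, adjusted p = 0.332), both of them prefoldin subunits. CCT5, the TRiC subunit with the highest mean CPM, had a log2 fold change of -0.26 (SE 0.49, adjusted p = 0.856). In the HSF family and its regulators 1 of 5 was lower, HSBP1L1 (-1.14, SE 0.41, adjusted p = 0.399).

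The mitochondrial chaperones and proteases other than HSPD1 and HSPE1 held 6 of the 12 lower genes. Of 11 tested, 6 (54.5%) were lower by the looser criterion and 0 higher, against 5.34% and 4.24% of all genes, and the median log2 fold change was -1.30. HSPA9, the mitochondrial HSP70 (mortalin), had 1264 CPM in parental cells and 367, 281 and 360 CPM in clone 1, the library labelled clone 5 and clone 6. This is a log2 fold change of -1.91 (SE 0.34, adjusted p = 0.275, edgeR, and 0.000263 with DESeq2's Wald test). LONP1, the matrix protease that degrades damaged proteins, had 696 CPM in parental cells and 196, 141 and 165 CPM in the clones (log2 fold change -2.06, SE 0.33, adjusted p = 0.275, edgeR). The clones lay close together for both genes and all far below the parental library. The J protein DNAJA3 had a log2 fold change of -1.61 (SE 0.28), the exchange factor GRPEL2 of -1.91 (SE 0.46) and the iron-sulfur cluster J protein HSCB of -1.43 (SE 0.37), with adjusted p of 0.275, 0.327 and 0.332 from edgeR. The second exchange factor of the list, GRPEL1 (-0.74, SE 0.50, adjusted p = 0.584), and the J protein DNAJC19 (-0.32, SE 0.35, adjusted p = 0.743) did not meet the criterion. Nor did CLPX (-0.98, SE 0.30, adjusted p = 0.356), CLPP (-0.09, SE 0.39, adjusted p = 0.944) and CLPB (-0.04, SE 0.35, adjusted p = 0.973). For CLPP and CLPB the clones lay on both sides of the parental level. The genes that missed the criterion were named after their values were seen. TRAP1, the mitochondrial HSP90, was the last of the 6 lower genes, with 200.5 CPM in parental cells and 81.3 ± 26.2 (SD, n = 3) in the clones. In counts per kilobase of exon, HSPA8 was 0.470 times HSPA9 in the parental library and 6.47 to 9.36 times in the clones. With DESeq2's Wald test 5 genes of this list were lower at an adjusted p under 0.05 (2.40% of all genes), and with edgeR's test 0 were.

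**Figure D4:**
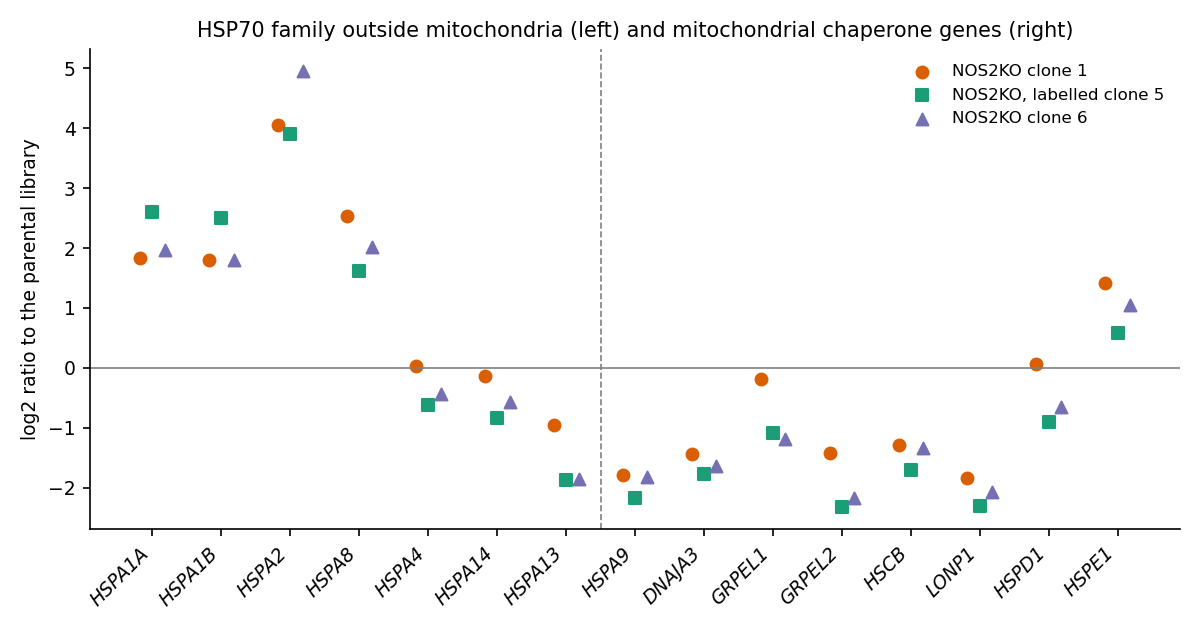
Log2 ratio of each NOS2KO clone to the parental library for selected HSP70-family genes outside mitochondria (left of the dashed line) and for mitochondrial chaperone genes and the protease LONP1 (right), 1 point per clone. On the left, HSPA1A, HSPA1B, HSPA2 and HSPA8 lie above 0 in every clone, HSPA13 and HSPA14 below it, and HSPA4 on both sides. On the right, HSPA9, DNAJA3, GRPEL1, GRPEL2, HSCB and LONP1 lie below 0 in every clone, HSPE1 above it, and HSPD1 on both sides. Not all genes of the lists are drawn. Of the mitochondrial list, CLPX, TRAP1 and DNAJC19 (below 0 in every clone) and CLPB and CLPP (on both sides) are left out.

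The genes whose pattern over the 4 libraries came nearest to HSF1 were BCL6, SPG11, AMER1, AKIRIN2 and YAF2, by Euclidean distance of log2 CPM centred over the libraries, among 8620 genes that reached 10 CPM in all libraries. Their distances were 0.0398 to 0.0769. For HSPA1A they were MAF, ATOH8, ANXA6, MYL6 and FAT4, at distances of 0.141 to 0.249. MAF, the nearest, had 11.3 CPM in parental cells and 40.4, 77.3 and 45.3 CPM in clone 1, the library labelled clone 5 and clone 6, the same order of libraries as HSPA1A. With 4 libraries, a near pattern is a description of these values only.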

How the data were processed

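Parental SUM159 cells (1 library) and 3 NOS2KO clones (1 library each) were sequenced as poly(A)-enriched mRNA with a NEBNext Ultra II kit and paired ends. What the authors deposited are raw, unnormalized counts for 57500 Ensembl gene identifiers. The submitters' processing notes name bcl2fastq 2.17, Trimmomatic 0.36, STAR 2.5.2b, featureCounts of Subread 1.5.2, DESeq2 and GRCh38. Strand and multi-mapping settings are not given in the sources used here. Symbols came from GENCODE release 29, which paired 56898 identifiers, and each member had the same start and end there.

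The fit used edgeR 4.0.16 under R 4.3.3 (TMM, glmQLFit and glmQLFTest after filterByExpr), with Benjamini-Hochberg adjustment over 22511 genes. Residual degrees of freedom were 2, and the common dispersion was 0.319. Standard errors came from the information matrix of that fit. The looser criterion, without adjustment, takes its thresholds from the study, where a Wald test gave the p-values. Here it was applied to the p-values of edgeR unless another test is named. With DESeq2's Wald test it gave 5 members higher and 0 lower, and over all 22511 genes 1591 higher and 1144 lower. Log2 ratios of single libraries carry exact Clopper-Pearson 95% intervals, which cover counting error only, as do floors. DESeq2 1.42.0, other scalings and filters, robust estimation, summed gene copies and each clone left out were alternatives. Fits and intervals were first tested on simulated data. Shared sequence was counted as identical 150-base windows over GENCODE transcripts with Python 3.11.15, and promoter windows came from RefSeq, which gave 9 of the 10 members.

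The members and lists were chosen with earlier results of these data known. All members are named. From the lists are named BAG3, HSPA6, CRYAB, HSP90AB1 and HSF2, the gene with the highest mean CPM of each (1 of these is not reported here), and those with an adjusted p under 0.05 or past the looser criterion with at least 10 CPM in a library. HSPB3, HSPB6, GRPEL1, DNAJC19, CLPX, CLPP, CLPB and the comparison of gene lengths were chosen after their values were seen. HSPA14 is named only because a figure draws it.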

Additional observations from a re-analysis of the deposited data

How the results depend on the processing

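Of the counts of members, DESeq2's Wald test moved that at an adjusted p under 0.05 from 0 to 4, and the count lower by the looser criterion ranged from 0 to 1 when single clones were dropped, 1 being reached without clone 6. For the other genes of the lists, DESeq2's Wald test gave 9 at an adjusted p under 0.05 where edgeR gave 0. Dropping single clones, the number higher by the looser criterion ranged from 2 (without the library labelled clone 5) to 7 (without clone 1), against 4 with all clones, and the number lower from 7 (without the library labelled clone 5, and also without clone 6) to 14 (without clone 1), against 12. Over all genes tested, 688 were higher without the library labelled clone 5, 641 without clone 6 and 1791 without clone 1, against 955. These numbers moved as in the lists except without clone 6, where the lists stayed at 4. The numbers lower over all genes moved as in the lists, with 996, 825 and 1608 without the library labelled clone 5, clone 6 and clone 1, against 1202. The log2 fold change of HSP90AA1 ranged from -0.20 (without clone 1) to 0.72 (without the library labelled clone 5), and the cause was not tested. The log2 fold changes of the other 9 members kept their sign under all alternatives run, and the number of members higher by the looser criterion stayed within 1.5 times of 4. Upper quartile scaling moved the median log2 fold change of all genes from 0.10 to 0.20, and no filter on low counts moved it to 0.31. No paired analysis was possible because the parental line has 1 library and its title links it to no single clone. The parental library is assumed to vary like the clones, and a low count in a single library (NOS2, HSPB3) limits its precision.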
